A study of Mus musculus with 15 samples.

Results

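Zinc finger protein (Zfp) genes were followed across 5 groups of mouse colon samples. They were taken as the rows of the 3 deposited count tables whose symbol is Zfp followed by a number, without Zfp36, an RNA-binding protein of another kind. The rule uses names alone and found 269 of the 12897 genes listed in any table. The treated and untreated B6 libraries held 262 of them among 12643 genes, and 261 were in all 3 tables. RNA-seq was run on homogenized distal colon of C57BL/6 wild-type mice (B6, C57BL/6J in the study's methods) and of mice with the Irf1-/- knockout on the same background, with 3 mice in each group. Wild-type mice were untreated in 2 separate sets (control set 1 and control set 2) or were collected on day 26 (D26) after 1 AOMxDSS treatment, and Irf1-/- mice were untreated or treated in the same way. Treatment was azoxymethane (AOM) at 7 mg/kg on day 1 followed by 2% dextran sulfate sodium (DSS) in the drinking water from day 8 to day 11. Azoxymethane is a carcinogen, and dextran sulfate sodium injures the colon epithelium and causes colitis. The labels give no age, and by the methods the AOM/DSS model used mice 8 to 10 weeks old.

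The zinc finger of this family is a short fold in which a pair of cysteines and a pair of histidines hold a zinc ion. Arrays of such fingers read DNA, and the products are mostly transcription factors. Many members also carry a KRAB box, through which the co-repressor Trim28 (KAP1) and histone methylation machinery are recruited, and the best known task of these KRAB proteins is the silencing of retroelements and imprinted loci. Genes with a KRAB box lie in tandem runs along the chromosomes, and their coding parts are built from repeated finger units rich in A and T. Members without the box include general regulators of growth and differentiation, and a few bind RNA or act in mitosis or translation.

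The sequences below show the unit that repeats in these genes and how its base composition varies among members that the results turn on. Each is the first finger of a fixed spacing in the GENCODE M21 transcript with the longest coding part, in the reading frame with most such fingers. It is 63 bases long, with the codons of the 2 cysteines and 2 histidines in capitals.
Zfp808: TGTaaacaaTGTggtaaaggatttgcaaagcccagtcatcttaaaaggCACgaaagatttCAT
Zfp433: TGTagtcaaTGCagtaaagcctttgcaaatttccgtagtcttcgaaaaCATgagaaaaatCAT
Zfp457: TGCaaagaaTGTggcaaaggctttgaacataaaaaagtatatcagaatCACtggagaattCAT
Zfp217: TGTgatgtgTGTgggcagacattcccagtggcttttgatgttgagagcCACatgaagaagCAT
Zfp408: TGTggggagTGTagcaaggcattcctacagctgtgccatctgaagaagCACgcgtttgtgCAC
Zfp821: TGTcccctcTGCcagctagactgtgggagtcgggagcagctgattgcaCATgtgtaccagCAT
The median GC content of all fingers of this spacing was 31.7% in Zfp808, with 22 such fingers, 38.1% in Zfp433, with 17, and 35.7% in Zfp457, with 16. It was 50.8% in Zfp217, with 6 fingers, 60.3% in Zfp408, with 10, and 59.5% in Zfp821, with 2.

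By a search of translated coding parts, 106 of the 269 Zfp genes had both fingers and a KRAB-like stretch, 151 had fingers and no KRAB-like stretch, and 12 had no finger that the search found (3 of these have no annotated coding part). Genes with a KRAB-like stretch held a median of 12 fingers and a transcript GC content of 41.2%. Genes with fingers alone held a median of 9 fingers and a GC content of 49.4%. Over all 269 members the median GC content was 45.4%, with a range of 34.4% to 68.7%, against 50.0% over all genes. When all genes were divided into 5 equal bins by GC content, the lowest bin, at or below 44.2%, held 124 of the 269 members, among them 77 of the 106 with a KRAB-like stretch.

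Depth was nearly equal among libraries, with 22266607 to 22869853 counts in listed genes. Irf1 itself was lower in each Irf1-/- library (79.4 to 123 CPM, reads scaled to library size) than in any B6 library (128 to 227 CPM), and reads over the gene were not absent. Markers of colon epithelium (12 of 12 listed genes) and smooth muscle (8 of 8) were detected in each library. The 5 most abundant members by mean CPM were Zfp488, Zfp277, Zfp937, Zfp781 and Zfp106. Per kilobase of transcript, mean CPM was 337 for Zfp488, 188 for Zfp277, 97.2 for Zfp937, 78.1 for Zfp781 and 26.3 for Zfp106. Of these 5 levels, 3 are uncertain in assignment, since 96.3% of the 50-base stretches of Zfp781, 29.1% of those of Zfp937 and 15% of those of Zfp488 also occur in another gene's transcript. Over all 269 members the median of this share was 0.171%, 117 members shared no stretch, and 36 shared at least 10%.

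The response of B6 colons to AOM/DSS was measured by comparing D26 libraries with control set 1. Zfp genes were lower as a group in treated B6 colons, and the lowest included genes of low GC content. Among these, Zfp808, Zfp758 and Zfp820 were of KRAB type, and Zfp947 had fingers and no KRAB-like stretch. Zfp947 and Zfp820 reached 5 CPM in 3 libraries of this comparison only through the controls, where they are high. The share of all counts taken by Zfp genes was 0.972%, 0.934% and 0.888% in the 3 treated B6 libraries and 1.01% to 1.17% in the 12 others, with no overlap. The median log2 fold change of the 262 members was -0.20, with quartiles of -0.45 and 0.00, against 0.01 over all 12643 genes. Of the 262, 196 (74.8%) had a negative log2 fold change, against 48.2% of all genes. Since the tissue was homogenized whole, fewer cells that express these genes and less RNA per cell cannot be told apart. The fall also followed GC content over all genes of these libraries, and the median was -0.10 with the correction given below. The cause of the fall was not tested.

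No Zfp gene reached 1.5-fold at an adjusted p under 0.01 in the edgeR quasi-likelihood test (0 of 262 in either direction). Of all genes, 0.0158% were called lower and 0.0316% higher at that threshold, and DESeq2 called 41 members lower there (against 1.69% of all genes by DESeq2). At an adjusted p under 0.05 with any fold, 60 members (22.9%) were lower, against 4.52% of all genes, and 1 (0.382%) was higher, against 3.95%. At an unadjusted p under 0.05 the counts were 110 lower (42%, against 14.8%) and 7 higher (2.67%, against 14.7%). The 3 treated libraries all lay below the 3 controls for 118 members (45%, against 18.1% of all genes) and all above them for 12 (4.58%, against 16.4%). The count of 60 was 1, 8 and 0 when control set 1 lacked replicate 1, 2 or 3, and 64, 67 and 4 when treated replicate 1, 2 or 3 was left out. Without treated replicate 1 or 2, 2 and 1 members were called lower at 1.5-fold. With control set 2 in place of set 1 it was 71, and with both sets 91.

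**Figure D1:**
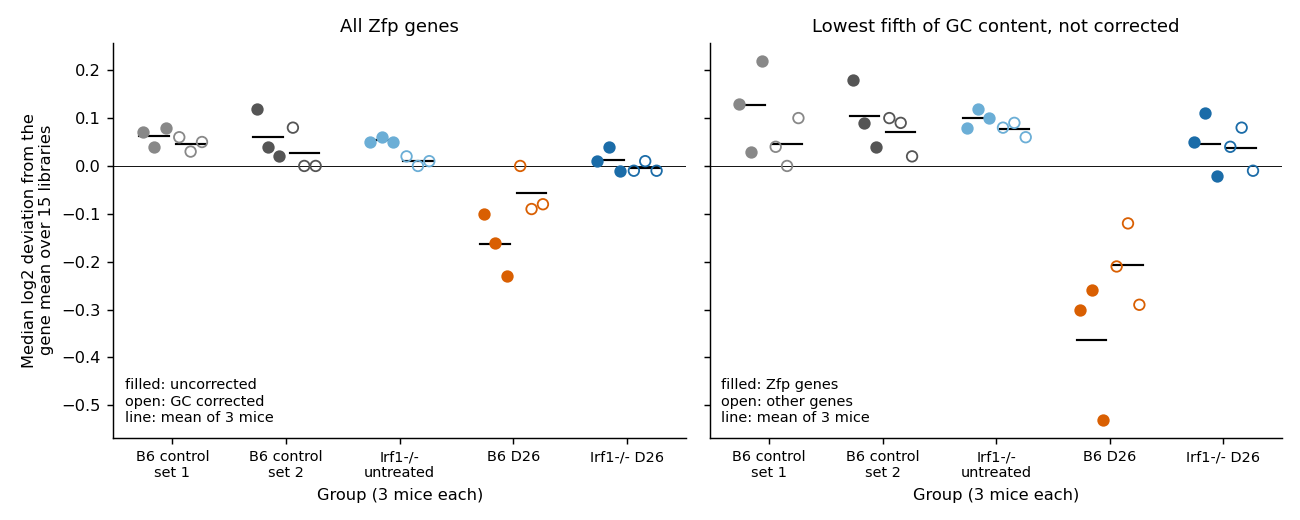
Median log2 deviation of Zfp genes from each gene's mean over the 15 libraries, 1 point per mouse and a line at the mean of 3 mice, for all Zfp genes without and with correction for GC content (left) and for Zfp and other genes in the lowest GC bin (right). The 3 treated B6 libraries lie at -0.10, -0.16 and -0.23 for all Zfp genes, below the 12 other libraries at -0.01 to 0.12.

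Zfp808, a KRAB-type gene, was at 14.7, 13 and 20.6 CPM in control set 1 and at 6.15, 6.81 and 6.60 CPM in treated B6. It was at 12.2, 14.2 and 11.6 CPM in control set 2, at 12.9, 13.5 and 15.5 CPM in untreated Irf1-/- and at 14.8, 16.4 and 11.6 CPM in treated Irf1-/-. All 3 treated B6 libraries thus lay below the 12 others. Its log2 fold change in B6 was -1.30 ± 0.19 (SE, edgeR adjusted p = 0.0157). Of its 50-base stretches, 43.1% occur in other genes, the most in Zfp934, so counts of these genes may be mixed.

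Zfp932, a KRAB protein that silences endogenous retroviruses, was at 38.8, 35.1 and 37.9 CPM in control set 1 and at 18.1, 24.5 and 16.1 CPM in treated B6. In control set 2 and both Irf1-/- groups it lay between 29.0 and 38.5 CPM, again above all treated B6 libraries. Its log2 fold change was -0.92 ± 0.15 (SE, edgeR adjusted p = 0.0185), with 45.2% of its 50-base stretches shared with other genes, the most with Gm15446. Zfp947, with fingers and no KRAB-like stretch, was at 11.9, 11.4 and 14.2 CPM in control set 1 and at 4.66, 6.19 and 5.69 CPM in treated B6. The groups did not overlap, and the log2 fold change was -1.17 ± 0.17 (SE, edgeR adjusted p = 0.0157). Zfp397, a gene with fingers and no KRAB-like stretch that shares little sequence (1.01% of stretches), was at 99.1, 90.5 and 97.1 CPM in control set 1 and at 68.1, 65.9 and 59.6 CPM in treated B6. Its fall was smaller and as regular, at -0.56 ± 0.08 on the log2 scale (SE, edgeR adjusted p = 0.0157). Zfp120 and Zfp953, both of KRAB type, complete the 6 members of smallest p in this direction, with log2 fold changes of -0.61 ± 0.10 and -0.68 ± 0.11 and no overlap between groups. With the correction for GC content described below, the log2 fold change of Zfp397 was -0.23 (edgeR adjusted p = 0.149). That of Zfp120 was -0.19 (edgeR adjusted p = 0.34). The corrected mean CPM of Zfp953 was 18.8 in control set 1 and 16.1 in treated B6.

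The highest member was Zfp821, with 2 fingers, at 11.9, 11.1 and 10.2 CPM in control set 1 and at 15.2, 14.9 and 15.3 CPM in treated B6. Its treated libraries all lay above the controls, and its log2 fold change was 0.46 ± 0.12 (SE, edgeR adjusted p = 0.0454). The adjusted p passed 0.05 in 4 of 19 alternatives (range 0.0267 to 0.651) and in none of those that left out a mouse. Other members with the smallest p in this direction did not pass. They include Zfp217, a co-repressor whose human relative is amplified in carcinomas, at a log2 fold change of 0.29 ± 0.11, Zfp750, a driver of terminal differentiation of the epidermis, at 0.31 ± 0.10, and Zfp516, an activator of brown fat genes, at 0.30 ± 0.12.

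The response in B6 followed GC content. The log2 fold change of the 262 members rose with transcript GC content with a Spearman rho of 0.87, across genes measured in the same 6 libraries, and with the number of fingers at -0.34. In the lowest GC bin the median log2 fold change of 119 members was -0.48, and that of other genes of that bin was -0.24. In the next bins it was -0.22 for members against -0.09 for others, then -0.08 against 0.02, 0.07 against 0.12, and in the highest bin 0.13 against 0.18. The median of Zfp genes was therefore below that of other genes in each bin. GC content can still differ within a bin, and the lowest spans 31.0% to 44.2%. With the GC correction given below, the medians of the lowest bin were -0.17 for members and 0.02 for others. The same slope was present in each treated B6 library, where the log2 deviation of all genes rose by 0.20, 0.14 and 0.29 for each 10% of GC content, against -0.13 to 0.03 in the other 12. The cause of this slope was not tested.

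**Figure D2:**
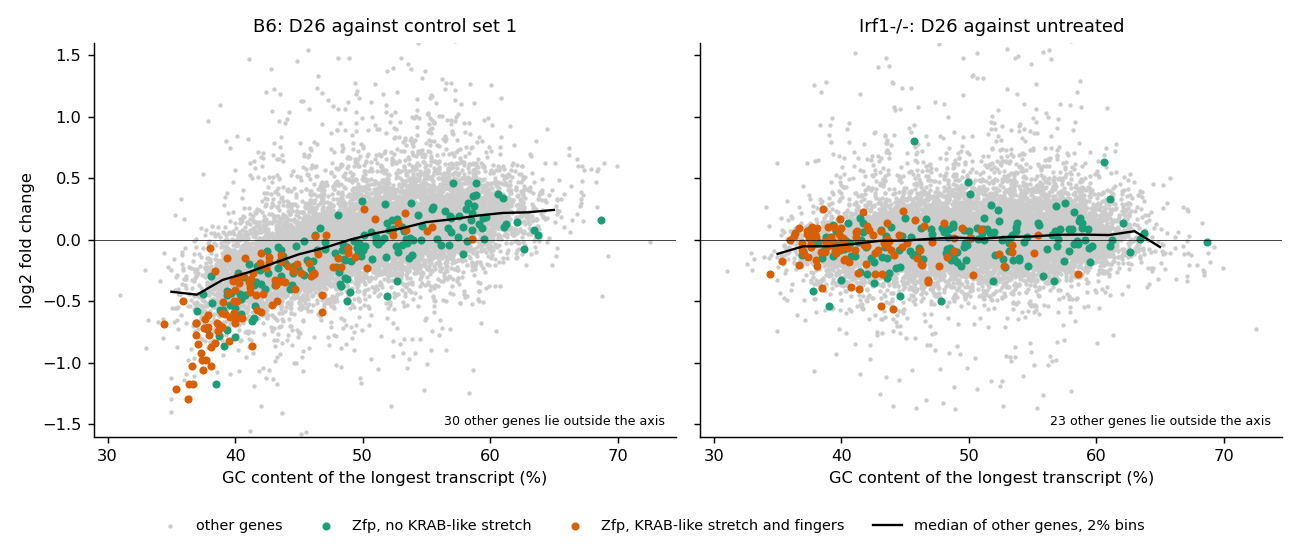
Log2 fold change at D26 against the GC content (%) of the longest transcript, 1 point per gene, in B6 (left) and Irf1-/- (right), with Zfp genes coloured by class and a line at the median of other genes in 2% bins. In B6 the Zfp genes fall along and below the rising line (rho 0.87 over 262 members), and in Irf1-/- both lie near 0 (rho 0.15 over 267 members).

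When each library was corrected by a lowess curve on GC content, the median of the 262 members moved from -0.20 to -0.10, against 0.01 over all genes. No member passed an adjusted p of 0.05 after the correction (0 of 262, edgeR, against 0.287% of all genes lower and 0.614% higher). At an unadjusted p under 0.05, 49 members (18.7%) were lower, against 7.37% of all genes, and 5 (1.91%) were higher, against 10.8%. Treated and control libraries did not overlap for 68 lower members (26%, against 11.2%) and for 6 higher members (2.29%, against 12.4%). With correction, the median log2 deviations of the treated B6 libraries were -0.00, -0.09 and -0.08, and those of the 12 others -0.01 to 0.08, so treated replicate 1 lay among the others. In the lowest GC bin the corrected difference between members and other genes was -0.07, -0.11 and -0.14 in the 3 treated B6 libraries and -0.02 to 0.09 in the 12 others. The lowest corrected log2 fold changes were those of Zfp808 (-0.79, edgeR adjusted p = 0.0657) and Zfp947 (-0.78, adjusted p = 0.0572). Over all 19 alternatives their adjusted p ranged from 1.1e-07 to 0.163 and from 6.13e-07 to 0.112. A curve fitted without the Zfp genes gave a median of -0.11.

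By class, the median in B6 was lowest among KRAB-type genes. The 102 tested members with fingers and a KRAB-like stretch had a median log2 fold change of -0.38, with 91 negative (against 48.2% of all genes) and 42 lower at an adjusted p under 0.05 (against 4.52% of all genes, as for each count of lower genes that follows). The 149 members with fingers alone had a median of -0.08, with 17 lower and 1 higher (against 3.95% of all genes). The 11 members with no finger found had a median of -0.01, with 1 lower. After GC correction the medians were -0.17, -0.08 and -0.02. Genes of the same build with other symbols went the same way, with a median of -0.55 over 43 genes (28 lower) and -0.25 after correction (2 lower, against 0.287%). Of other zinc finger families, the median was -0.08 for 35 Zbtb genes (2 lower), -0.10 for 15 Zkscan and Zscan genes (2 lower), -0.05 for 14 Zc3h genes (0 lower or higher, 1 in each direction at an unadjusted p under 0.05) and 0.00 for 12 Klf genes (1 higher). Of 40 genes listed as partners of KRAB proteins in silencing, 38 were tested, with a median of -0.01 and 3 lower.

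**Figure D3:**
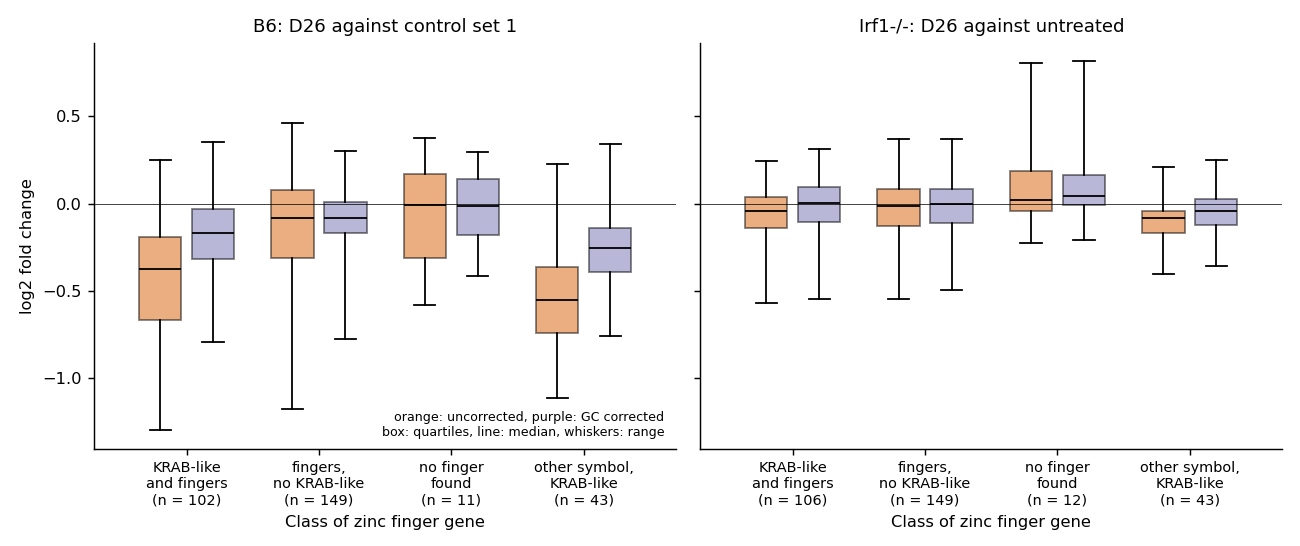
Log2 fold change at D26 by class of zinc finger gene in B6 (left) and Irf1-/- (right), uncorrected and corrected for GC content, with boxes at the quartiles, a line at the median and whiskers over the range. KRAB-type genes have medians of -0.38 and, under other symbols, -0.55 in B6, and -0.04 and -0.08 in Irf1-/-.

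The 60 members lower in B6 at an adjusted p under 0.05 had folds of 1.24 to 2.45, and 40 of them changed by at least 1.5-fold. Of the 60, 43 had a KRAB-like stretch and 57 lay in the lowest GC bin, with a median GC content of 38.7%. Their median log2 fold change was -0.68, and -0.31 with GC correction. In the Irf1-/- response, which shares no library with the B6 response, the same 60 had a median of -0.05, with 43 negative and 2 at an unadjusted p under 0.05.

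Among members known for silencing retroelements or keeping imprints, 5 of 10 were tested and 2 were lower in B6, against 4.52% of all genes. Zfp445, a keeper of imprinted methylation, was at 160, 135 and 160 CPM in control set 1 and at 109, 120 and 91.6 CPM in treated B6. The groups did not overlap, and the log2 fold change was -0.49 ± 0.11 (SE, edgeR adjusted p = 0.0364). Zfp932, described above, was the other. Zfp809, which silences murine leukaemia proviruses, had a log2 fold change of -0.27 ± 0.12 and did not pass (adjusted p = 0.179). Neither did Zfp281, a regulator of pluripotency, at -0.37 ± 0.13 (adjusted p = 0.112). The remaining tested member, Zfp568, was not lower, at 0.04 (edgeR adjusted p = 0.779) and 0.11 after GC correction.

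Of 27 members listed for general transcription and growth, 23 were tested, with a median log2 fold change of 0.01, and 5 were lower, against 4.52% of all genes. They were Zfp292 (-0.61 ± 0.14), Zfp644, a partner of histone H3 methyltransferases (-0.54 ± 0.11), Zfp704 (-0.38 ± 0.08), Zfp148, which binds GC-rich promoters (-0.33 ± 0.08), and Zfp91, a ubiquitin ligase (-0.31). Of 12 members listed for RNA binding, splicing, mitosis or translation, 10 were tested, with a median of -0.11 and 1 lower (against the same share). That gene, Zfp871 (-0.41 ± 0.08, edgeR adjusted p = 0.0263), has fingers and a KRAB-like stretch by its coding part. Zfp207, which acts in spindle assembly, was at 160, 167 and 171 CPM in control set 1 and at 145, 145 and 137 CPM in treated B6. Its groups did not overlap, and its log2 fold change of -0.21 ± 0.07 did not pass (adjusted p = 0.0948). Zfp598, a ubiquitin ligase for collided ribosomes, had a log2 fold change of 0.18 ± 0.08 (adjusted p = 0.202). No gene of these 3 lists passed an adjusted p of 0.05 after GC correction (edgeR), and the corrected log2 fold changes differed in how much remained. Zfp704 and Zfp91 stayed near their uncorrected values, at -0.34 and -0.28. Zfp292 was at -0.31, Zfp644 at -0.28, Zfp445 at -0.31 and Zfp932 at -0.49. Zfp871 was at -0.08 and Zfp148 at 0.01, while Zfp207 and Zfp598 changed sign, to 0.04 and -0.01.

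Along the chromosomes, 79 members lie in 11 runs of at least 4 neighbouring Zfp genes. The run from Zfp677 to Zfp40 holds 17 members with a median GC content of 38.2%, 14 of them of KRAB type. All 17 had a negative log2 fold change in B6, with a median of -0.74 and a range of -1.21 to -0.30, and 14 were lower at an adjusted p under 0.05 (against 4.52% of all genes). In the run from Zfp712 to Zfp748, 10 of 13 members were tested in B6, with a median of -0.50 and 5 lower (against the same 4.52%). The run from Zfp768 to Zfp689, with a GC content of 53.4%, had a median of 0.19 over its 5 members, none of them negative. After GC correction these medians were -0.35, -0.19 and 0.06. In the Irf1-/- response they were -0.02, -0.01 and -0.10. Members in runs had a median of -0.33 in B6 (76 genes), and those outside runs -0.15 (186 genes), which became -0.15 and -0.10 after correction. Neighbours can share sequence, with a median shared share of 0.913% of stretches in the Zfp677 to Zfp40 run and 5.12% in the Zfp712 to Zfp748 run.

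**Figure D4:**
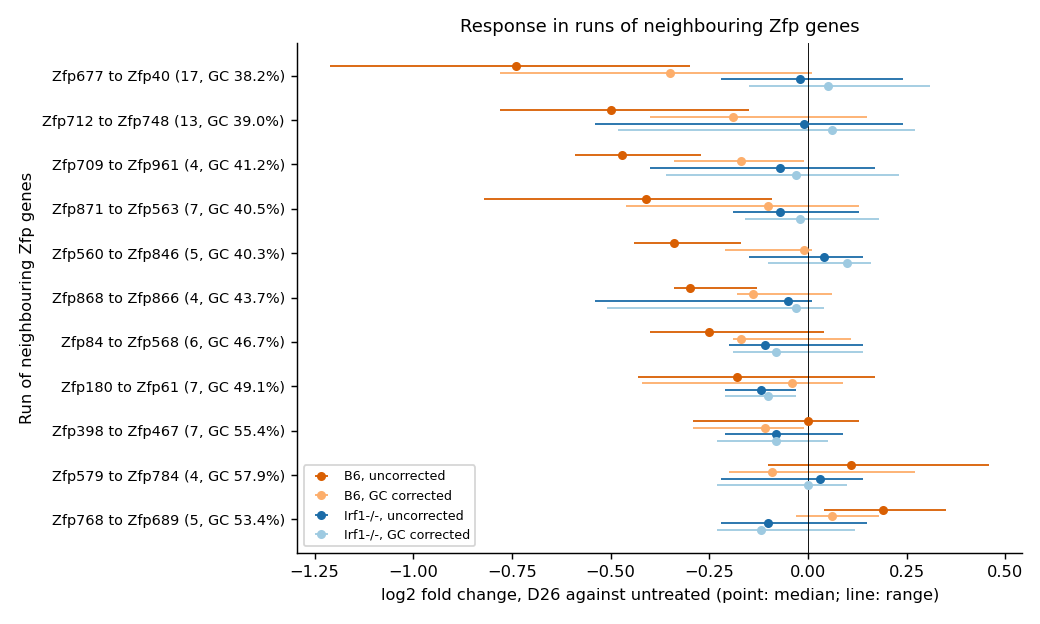
Median (point) and range (line) of log2 fold change at D26 in 11 runs of neighbouring Zfp genes, with the number of members listed and their median GC content (%), in B6 and Irf1-/-, uncorrected and corrected for GC content. Medians in B6 reach from -0.74 in the Zfp677 to Zfp40 run to 0.19 in the Zfp768 to Zfp689 run, and those in Irf1-/- from -0.12 to 0.04.

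Markers of the cell types of the colon were followed in the same libraries. The summed level of the 12 epithelial markers was 11951 to 12590 CPM in control set 1 and 13360 to 17856 CPM in treated B6. Control set 2, at 11480 to 14350 CPM, overlapped with treated B6. The epithelial sum in Irf1-/- colons was 14111 to 14209 CPM untreated and 13475 to 14493 CPM treated. The 7 detected of 12 leukocyte markers, with Ptprc among them, summed to 272 to 435 CPM in control set 1 and 381 to 544 CPM in treated B6. In Irf1-/- colons the leukocyte sum was 275 to 353 CPM untreated and 461 to 469 CPM treated. The part of these cell types in the Zfp levels was not tested.

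The response of Irf1-/- colons to AOM/DSS was measured in the same way, with treated against untreated Irf1-/- libraries. The median log2 fold change of 267 members was near that of all genes, at -0.02, with quartiles of -0.13 and 0.07, against 0.01 over all genes, and 153 (57.3%) were negative, against 48.2% of all genes. No member passed the threshold of 1.5-fold with an adjusted p under 0.01 (0 of 267 in the edgeR test, against 0.205% of all genes higher and 0.0473% lower), and DESeq2 called 2 higher (against 1.2% of all genes). At an adjusted p under 0.05, 1 member was lower (0.375%, against 0.875%) and 0 were higher (against 1.5%). At an unadjusted p under 0.05, 23 were lower (8.61%, against 8.47%) and 7 higher (2.62%, against 10.1%). Libraries did not overlap for 40 lower members (15%, against 13%) and 18 higher members (6.74%, against 12.2%). The classes had medians of -0.04 for KRAB-type genes and -0.02 for genes with fingers alone, and the rho with GC content over 267 members was 0.15.

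The member lower in Irf1-/- was Zfp457, an array gene with 16 fingers. It was at 38.1, 39.6 and 39.2 CPM in untreated and at 23.8, 28.5 and 27.8 CPM in treated Irf1-/- mice. In B6 it was at 29.5, 29.6 and 36.0 CPM in control set 1, at 40.6, 33.4 and 36.9 CPM in control set 2 and at 22, 22.5 and 19.1 CPM after treatment. It was lower after treatment in both genotypes without overlap. Its log2 fold change was -0.54 ± 0.09 in Irf1-/- (SE, edgeR adjusted p = 0.0226) and -0.57 ± 0.12 in B6 (adjusted p = 0.0256). With GC correction these were -0.48 (adjusted p = 0.0369) and -0.20 (adjusted p = 0.279), and adjusted p ranged over the alternatives from 6.42e-05 to 0.12 in Irf1-/- and from 0.00134 to 0.937 in B6. In Irf1-/- it did not pass an adjusted p of 0.05 without untreated replicate 1, 2 or 3, when 0 members did, and 3 members passed without treated replicate 3.

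The highest log2 fold changes in Irf1-/- did not pass. Zfp185, a LIM-domain protein of the actin cytoskeleton with no finger found, was listed only in the table of treated and untreated Irf1-/- libraries, at 5.64, 4.36 and 3.62 CPM untreated and 8.16, 8.45 and 7.09 CPM treated. The groups did not overlap, at a log2 fold change of 0.80 ± 0.18 (SE, edgeR adjusted p = 0.0627). Its untreated libraries at 4.36 and 3.62 CPM lay under the 5 CPM that the authors' filter needed in 3 libraries. Zfp185 was thus listed only through the treated libraries where it is high, so its rise and non-overlap are not independent of that filter. Zfp703, a co-repressor of the NET family, was at 13.2, 10.3 and 10.9 CPM untreated and 15.9, 16.4 and 20.8 CPM treated, at 0.63 ± 0.14 (adjusted p = 0.0627). It was also in treated B6 at 16.1, 17.7 and 22.6 CPM, where control set 1 at 16.2, 14.7 and 12.8 CPM overlapped with it.

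Across the responses of both genotypes, which share no library, 261 members could be compared. Libraries were lower without overlap in B6 for 118 (45.2%) and in Irf1-/- for 39. In both, 21 were lower (8.05%, against 4.03% of all genes), which is 17.8% of the 118 and 53.8% of the 39, so the share lower in B6 among the 39 was near that among all 261. Among the 21 were Zfp457, Zfp433, Zfp60, Zfp300 and Zfp91. These overlap counts are of values not corrected for GC content. With GC correction the B6 log2 fold change went from -0.57 to -0.20 for Zfp457 and from -0.84 to -0.45 for Zfp433. It went from -0.63 to -0.31 for Zfp60 and from -0.26 to 0.14 for Zfp300, so Zfp300 was then not lower. Libraries were higher without overlap in both genotypes for 4 members (1.53%, against 4.13%), Zfp217, Zfp335, Zfp710 and Zfp750. Libraries were lower in B6 and higher in Irf1-/- for 7 (2.68%, against 0.585%), Zfp51, Zfp87, Zfp318, Zfp429, Zfp472, Zfp507 and Zfp738, and the reverse held for 0 (against 0.977%). With GC correction the B6 log2 fold change was -0.28 for Zfp51, -0.23 for Zfp738 and -0.17 for Zfp472, from -0.68, -0.60 and -0.48. It was -0.20 for Zfp429, -0.17 for Zfp507 and -0.10 for Zfp318, from -0.45, -0.22 and -0.24. Zfp318, a regulator of IgD expression in B cells, was at 43.2, 42.5 and 41.6 CPM in control set 1 and 38.1, 33.3 and 35.7 CPM in treated B6, and at 41.2, 40.0 and 42.6 CPM untreated and 43.8, 47.7 and 48.4 CPM treated in Irf1-/-. The difference between these responses was 0.42 ± 0.10 on the log2 scale (SE) and did not pass (edgeR adjusted p = 0.0887).

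**Figure D5:**
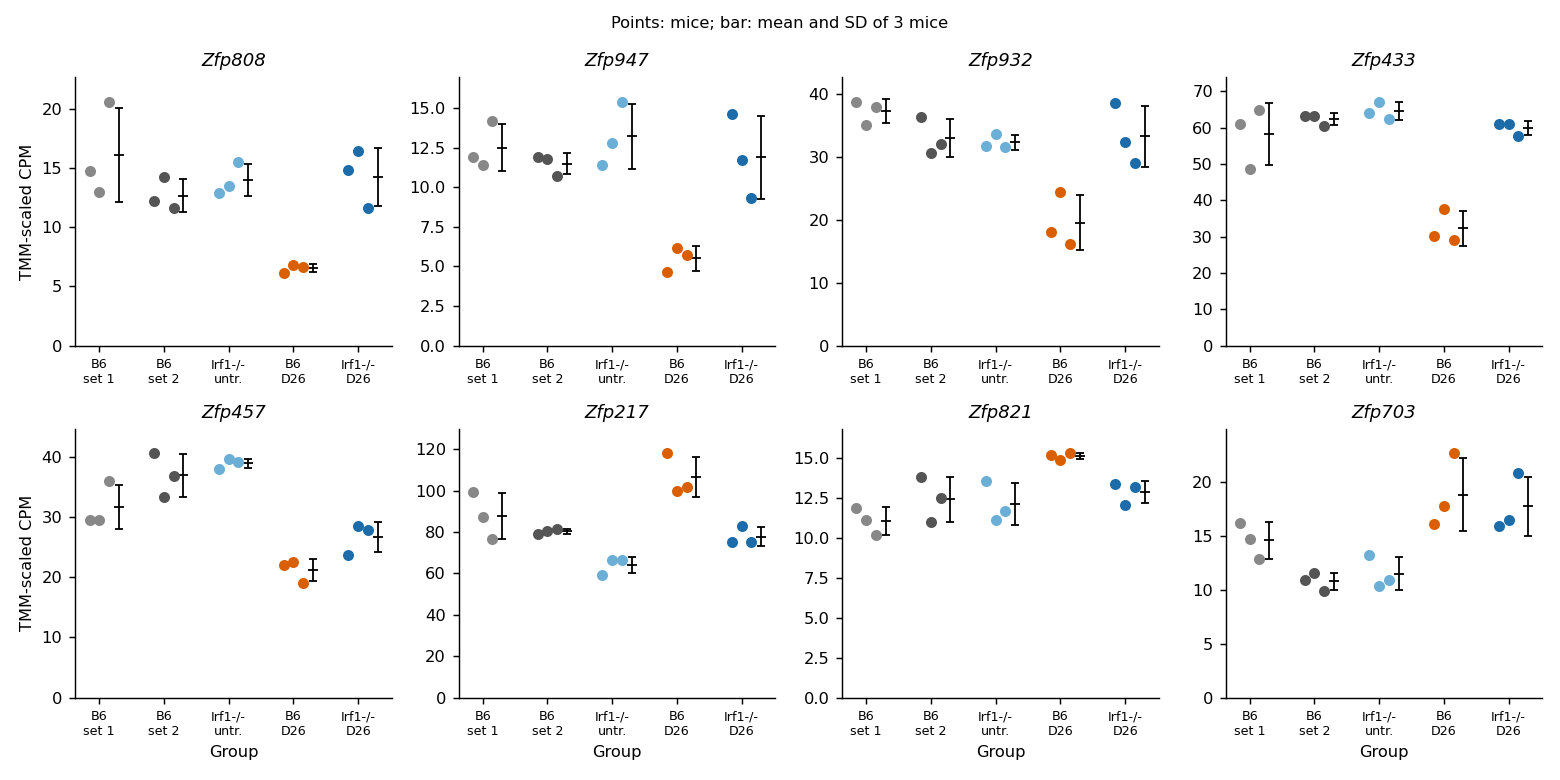
TMM-scaled CPM of 8 Zfp genes in each library of the 5 groups, with points for mice and a bar for the mean and SD of 3 mice, on axes that start at 0. Zfp808, Zfp947, Zfp932 and Zfp433 are lowest in the 3 treated B6 libraries, Zfp457 is lower after treatment in both genotypes, and Zfp217 is higher in treated B6 than in every other group.

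The difference between the responses was tested as an interaction of genotype and treatment, which reuses the libraries of both responses. No member passed an adjusted p of 0.05 (0 of 261 in the edgeR test, against 0.024% of all genes in each direction), and 39 were higher at that threshold by DESeq2 (against 2.07% by DESeq2). At an unadjusted p under 0.05, the response in Irf1-/- exceeded that in B6 for 78 members (29.9%, against 9.65% of all genes) and was below it for 4 (1.53%, against 7.23%). DESeq2 called 10 members higher at 1.5-fold and an adjusted p under 0.01 (against 0.393% of all genes), where edgeR called 0 (against 0.016%). The median difference was 0.16, with 190 of 261 positive (72.8%, against 51.9%), and was 0.10 after GC correction, with 177 positive and 42 (16.1%, against 4.93%) higher at an unadjusted p under 0.05. Without treated B6 replicate 2, 28 members passed an adjusted p of 0.05 and 1 was called at 1.5-fold. The smallest p belonged to Zfp808, with a difference of 1.33 ± 0.25 (SE, edgeR adjusted p = 0.0704), followed among others by Zfp932 at 0.97 ± 0.19 (adjusted p = 0.0741) and Zfp60 at 0.60 ± 0.12 (adjusted p = 0.0741).

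Treated Irf1-/- colons were then compared with treated B6 colons, which shows the level of Zfp genes in the mutants against wild type at D26. The median log2 fold change was 0.16 over 261 members, 177 of them positive (67.8%, against 48.5%), and 0.05 after GC correction. Zfp433 alone was called higher (1 of 261) at 1.5-fold with an adjusted p under 0.01 (0.383%, against 0.0721% of all genes), and 0 were called lower (against 0.312%). DESeq2 called 18 higher (against 1.03%), and 53 at an adjusted p under 0.05 (against 4.51%). At an adjusted p under 0.05, 16 were higher (6.13%, against 0.937%) and 1, Zfp217, was lower (0.383%, against 1.11%). At an unadjusted p under 0.05, 83 were higher (31.8%, against 11.4%) and 10 lower (3.83%, against 10.6%). Libraries did not overlap for 93 higher members (35.6%, against 14.5%) and 14 lower members (5.36%, against 13%). After correction, Zfp433 alone passed an adjusted p of 0.05 among members (against 0.105% of all genes higher), and 29 (11.1%, against 4.88%) were higher at an unadjusted p under 0.05. Of the 16, 11 had a KRAB-like stretch. The count of 16 was 3, 30 and 1 without treated B6 replicate 1, 2 or 3, and 1, 1 and 6 without treated Irf1-/- replicate 1, 2 or 3.

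Zfp433, a KRAB-type gene with 17 fingers, was at 61.0, 48.6 and 65.0 CPM in control set 1, at 63.3, 63.2 and 60.4 CPM in control set 2 and at 30.1, 37.7 and 29.0 CPM in treated B6. It was at 64.1, 67.2 and 62.4 CPM in untreated and at 61.1, 61.0 and 57.8 CPM in treated Irf1-/- mice. The treated B6 libraries lay below all 12 others. Treated Irf1-/- exceeded treated B6 by 0.88 ± 0.11 on the log2 scale (SE, edgeR adjusted p = 0.00639) and by 0.51 ± 0.08 after GC correction (adjusted p = 0.0272), and adjusted p ranged from 1.05e-08 to 0.116 over 15 alternatives. It passed an adjusted p of 0.05 without any 1 mouse, but 0 members were called at 1.5-fold and an adjusted p under 0.01 without treated B6 replicate 1 or 3 or any treated Irf1-/- replicate, and 2 without treated B6 replicate 2. Of its 50-base stretches, 94.1% also occur in another gene's transcript, with Gm32687 sharing the most, so part of the count may belong to other genes. Zfp654 was at 14.5, 18.7 and 13.7 CPM in treated B6 and at 29.1, 28.7 and 28.5 CPM in treated Irf1-/-, without overlap. It shared no 50-base stretch with another gene, and its log2 fold change was 0.87 ± 0.13 (SE, edgeR adjusted p = 0.0147), or 0.43 ± 0.10 after correction (adjusted p = 0.117).

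Zfp217 was the member lower in Irf1-/- mice, both untreated and treated. It was at 79.1, 80.7 and 81.3 CPM in control set 2 and at 59.4, 66.4 and 66.4 CPM in untreated Irf1-/-. It was at 118, 99.9 and 102 CPM in treated B6 and at 75.2, 83.0 and 75.4 CPM in treated Irf1-/-, and at 99.4, 87.2 and 76.9 CPM in control set 1. Irf1-/- libraries lay below those of B6 in both states, and treated libraries lay above untreated ones in both genotypes. The log2 fold change of Irf1-/- over B6 was -0.33 ± 0.06 untreated (SE, edgeR adjusted p = 0.0446) and -0.47 ± 0.09 treated (adjusted p = 0.0452). With GC correction it was -0.33 (adjusted p = 0.0355) and -0.41 (adjusted p = 0.0949), and over the alternatives adjusted p ranged from 0.0078 to 0.193 untreated and from 0.00316 to 0.242 treated. It did not pass an adjusted p of 0.05 untreated without replicate 2 or 3 of control set 2 or any untreated Irf1-/- replicate (0 members lower), nor treated without B6 replicate 1 or 3 or any Irf1-/- replicate (0 members lower, and 2 without B6 replicate 2). Against control set 1, untreated Irf1-/- differed by -0.46 ± 0.09 (adjusted p = 0.0188). The responses of Zfp217 to treatment were 0.29 ± 0.11 in B6 (adjusted p = 0.123) and 0.28 ± 0.07 in Irf1-/- (adjusted p = 0.0792), and their difference was 0.00 ± 0.14.

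At steady state, untreated Irf1-/- colons were compared with control set 2. The median log2 fold change of 267 members was -0.01, and 0 were called at 1.5-fold with an adjusted p under 0.01 in the edgeR test (against 0.0874% of all genes higher and 0.318% lower), or by DESeq2. At an adjusted p under 0.05, 1 was lower, Zfp217 (0.375%, against 0.81%), and 0 were higher (against 0.437%). At an unadjusted p under 0.05, 8 were higher (against 5.2% of all genes) and 10 lower (against 5.23%). Libraries did not overlap for 15 lower (5.62%, against 7.61%) and 18 higher members (6.74%, against 7.83%). With control set 1 in place of set 2, 7 members were higher at an adjusted p under 0.05 (Zfp11, Zfp12, Zfp300, Zfp316, Zfp408, Zfp459 and Zfp607), against 2.65% of all genes. Between the control sets the median was -0.02, 0 of 261 members passed an adjusted p of 0.05 in the edgeR test (against 0.169% of all genes higher and 0.403% lower), and DESeq2 found 5 higher (against 2.56%) and 1 lower (against 2.13%). The counts at an unadjusted p under 0.05 were 17 higher (6.51%, against 9.11%) and 12 lower (4.6%, against 8.08%). Libraries did not overlap for 28 lower (10.7%, against 11%) and 24 higher members (9.2%, against 10.4%).

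Promoters of members that moved are shown for what they hold of the core of the interferon response element bound by Irf1 (a pair of GAAA units separated by 2 bases) and of other common promoter motifs. Each spans 250 bases before to 50 after the start in RefSeq (GRCm38.p6), 5′ to 3′ on the strand of the gene, with motif matches in capitals.
Zfp808 (chr13:62129640-62129939, plus strand): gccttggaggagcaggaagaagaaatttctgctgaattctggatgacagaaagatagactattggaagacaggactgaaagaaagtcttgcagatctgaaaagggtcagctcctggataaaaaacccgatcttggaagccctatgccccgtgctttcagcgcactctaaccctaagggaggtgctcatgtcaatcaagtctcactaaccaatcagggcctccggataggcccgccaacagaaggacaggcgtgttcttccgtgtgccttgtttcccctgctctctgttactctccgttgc
Zfp433 (chr10:81704575-81704874, plus strand): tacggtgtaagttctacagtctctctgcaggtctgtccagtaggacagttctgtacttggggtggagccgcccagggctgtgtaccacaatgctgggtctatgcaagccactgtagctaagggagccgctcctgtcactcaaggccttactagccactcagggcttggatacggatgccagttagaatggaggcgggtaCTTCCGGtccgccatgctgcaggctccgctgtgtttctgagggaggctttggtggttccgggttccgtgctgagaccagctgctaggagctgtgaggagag
Zfp457 (chr13:67306363-67306662, minus strand): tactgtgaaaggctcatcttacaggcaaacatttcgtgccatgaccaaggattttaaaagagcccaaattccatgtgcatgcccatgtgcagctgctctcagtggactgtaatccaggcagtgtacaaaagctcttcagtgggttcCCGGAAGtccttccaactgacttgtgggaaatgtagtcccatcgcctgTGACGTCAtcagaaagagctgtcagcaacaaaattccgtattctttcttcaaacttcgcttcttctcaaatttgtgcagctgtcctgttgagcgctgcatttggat
Zfp217 (chr2:170142626-170142925, minus strand): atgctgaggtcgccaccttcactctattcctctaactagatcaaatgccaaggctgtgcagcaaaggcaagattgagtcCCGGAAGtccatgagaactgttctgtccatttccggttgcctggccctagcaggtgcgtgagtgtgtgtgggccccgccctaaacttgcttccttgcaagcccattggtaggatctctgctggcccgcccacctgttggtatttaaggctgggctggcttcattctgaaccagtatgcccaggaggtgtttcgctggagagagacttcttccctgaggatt
No motif searched is in the Zfp808 window. The Zfp433 and Zfp457 windows and this Zfp217 window, 1 of 2 starts listed, hold the ETS core CCGGAAG on either strand, and that of Zfp457 also holds the cAMP response element TGACGTCA. The second Zfp217 start, at chr2:170131171-170131470, has a GC content of 79.0% and holds the NRF1 core, GCGC and TGCGC separated by 1 base. None of these windows holds the interferon element core, searched on both strands.

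Over the 218 members with a listed promoter, the interferon element core was in 6 (2.75%), against 3.67% of 9505 genes of the tables. The ETS core was in 50 (22.9%, against 19.1%), the YY1 core AAGATGG in 23 (10.6%, against 8.27%), the NRF1 core in 24 (11%, against 11%) and TGACGTCA in 9 (4.13%, against 3.41%). The median promoter GC content of members was 55.8%, against 60.5% of all, and it was 53.0% in the 91 KRAB-type members and 60.0% in the 119 with fingers alone.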

How the data were processed

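RNA-seq of 15 mouse colons (3 mice in each of 5 groups) was used. The 3 tables deposited by the authors hold raw counts of reads for each gene, made from 50 bp paired-end reads of rRNA-depleted stranded libraries. The submitters' processing notes name TopHat2 2.0.9, Bowtie 1.0.0, featureCounts, edgeR and the build mm9, with no order. Rows needed 5 CPM in 3 or more libraries to be kept by the authors. The tables also hold the authors' CPM (36 columns), their log2 CPM, and log2 fold changes with p-values from the authors' own tests, and none of these was used. The strand setting of the counting was not given in the sources used here, so reads of antisense partners may be mixed with those of a gene.

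Members were chosen by symbol. The members and the gene lists were chosen with earlier results of these data known. Counts were scaled with TMM and fitted with the quasi-likelihood test of edgeR 4.0.16 (R 4.3.3) on all genes of the tables compared, with Benjamini-Hochberg adjustment over all of them. Calls needed 1.5-fold and an adjusted p under 0.01, and an adjusted p under 0.05 with any fold was a second rule. Errors of log2 fold changes are standard errors. Replicates are mice, so p-values measure the spread among 3 mice per group together with counting error. Counting error is larger for members of low count, such as Zfp820 with 69, 108 and 73 counts in treated B6.

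GC content and transcript length came from the longest transcript in GENCODE M21 (264 members by symbol and 5 by an older symbol). Coding GC content came from the transcript with the longest coding part, and promoters from RefSeq. That reference is GRCm38 and not the build of the files, so no coordinate was carried between them. Each library was corrected by a lowess curve (span 0.3) on GC content, used as an offset. Fingers and KRAB-like stretches were searched in translated coding parts. Named genes were every member called, the 6 members of smallest p in each direction of each comparison, the 5 of highest mean CPM and up to 4 members of each list. Zfp568, Zfp genes of the overlap counts and those higher against control set 1 were named after their values were seen.

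Alternatives were DESeq2 1.42.0, RLE size factors, a filter of 10 CPM, a block for the replicate number, removal of single mice, the other or both control sets, and GC corrections with length or with a curve fitted without the members. The GC content of the coding part, control sets together with GC correction, members with under 10% of shared 50-base stretches, and classes from translated coding parts were added after seeing the data. On simulated counts of the same size, with known changes and a known GC slope, the scripts were tested before use. pandas 2.3.3, numpy 2.4.6 and matplotlib 3.10.9 in Python 3.11.15 were used.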

Additional observations from a re-analysis of the deposited data

How the results depend on the processing

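Medians moved by less than 1 SD of the median difference (0.068 in the B6 response) in 97 of 114 alternatives. Of 723 log2 fold changes of named members, 14 changed sign, and these 723 do not cover every fit. Over 25 alternatives the difference between responses ranged from -0.35 to 0.14 for Zfp408 and from -0.32 to 0.18 for Zfp316. Counts of called members are mostly 0 in the main settings and say little about stability. For the results that changed, given next, the cause was not tested.

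In the B6 response the 60 members lower at an adjusted p under 0.05 became 0 with GC correction, with GC and length, with GC correction and the block, or with a curve without the Zfp genes. They became 1 with the GC content of the coding part, 91 with both control sets, and 6 with GC correction and control set 2 or both sets. The 1 member higher became 0 under all 7 of these GC corrections, 8 with both sets and 9 with control set 2. At 1.5-fold and an adjusted p under 0.01, 0 members lower became 41 with DESeq2, 29 with both sets and 6 with control set 2. The 60 lower and 1 higher are counts at an adjusted p under 0.05 with any fold. The median of -0.203 became -0.106 with GC and length, -0.104 with GC correction, -0.109 with GC correction and the block, -0.0907 with coding GC content, -0.107 with the curve without Zfp genes, and -0.0978 and -0.0892 with GC correction and both sets or set 2.

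In treated Irf1-/- against treated B6, the 1 member called higher became 18 with DESeq2 and 0 with each GC correction or the block. At an adjusted p under 0.05 with any fold, 16 were higher and 1 lower. At an adjusted p under 0.05 the 16 higher became 53 with DESeq2, 1 with GC correction, with GC and length or with the curve without Zfp genes, and 0 with coding GC content or with GC correction and the block. The 1 lower became 2 with DESeq2 and 0 with each GC correction. The median of 0.158 became 0.0348 with GC and length, 0.0464 with GC correction, 0.0487 with GC correction and the block, 0.0354 with coding GC content and 0.0465 with the curve without Zfp genes.

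In the Irf1-/- response DESeq2 called 2 members higher, and gave 4 higher and 10 lower at an adjusted p under 0.05. The 1 lower at an adjusted p under 0.05 with any fold became 0 with GC and length or coding GC content. The median of -0.024 became 0.00137 with GC correction, 0.00174 with GC correction and the block and 0.00114 with the curve without Zfp genes. For the difference between responses DESeq2 called 10 higher, and 39 at an adjusted p under 0.05. Its median of 0.161 became 0.0869 and 0.0689 with GC correction and both sets or set 2. Between control sets DESeq2 called 1 higher, and 5 higher and 1 lower at an adjusted p under 0.05. In untreated Irf1-/- the 0 higher became 7 with control set 1 and 8 with GC correction added, and the 1 lower became 0 with GC and length and 3 with control set 1 and GC correction. These untreated counts are at an adjusted p under 0.05 with any fold. With control set 1 the untreated differences of Zfp362, Zfp386 and Zfp521 became -0.01, -0.00 and -0.05 from 0.30, 0.30 and 0.36, and with control set 2 the difference between responses of Zfp316 became 0.00 from -0.27. In the B6 response GC correction turned Zfp148 from -0.33 to 0.01, Zfp207 from -0.21 to 0.04, Zfp598 from 0.18 to -0.01, Zfp277 from -0.24 to 0.00, Zfp781 from -0.29 to 0.12 and Zfp937 from -0.30 to 0.01. Zfp106, at -0.02, became 0.05 with GC correction, 0.06 with control set 2, 0.00 without control set 1 replicate 1 and 0.02 without treated replicate 3.

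The replicate number was no sign of pairing, since deviations of same-numbered mice had correlations of -0.250 to 0.248. With the replicate block, members at an adjusted p under 0.05 became 1 lower and 0 higher in B6, 2 higher and 2 lower in Irf1-/- (2 higher also with GC correction), 2 higher and 0 lower in treated Irf1-/- against treated B6, and 0 lower in untreated Irf1-/-.

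With 1 mouse left out, members at an adjusted p under 0.05 ranged from 0 to 67 lower and 0 to 1 higher in B6, 0 to 3 lower in Irf1-/-, 1 to 30 higher and 0 to 2 lower between treated genotypes, 0 to 1 lower between untreated genotypes and 0 to 28 higher for the difference between responses. Members called at 1.5-fold ranged from 0 to 2 lower in B6, 0 to 2 higher between treated genotypes and 0 to 1 higher for the difference. Medians ranged from -0.25 to -0.18 in B6 and from 0.12 to 0.19 between treated genotypes. Among the 227 members tested in B6 with under 10% of stretches shared, the median was -0.17 and 47 were lower. Each listed gene had 5 CPM in at least 3 libraries of its table, and Zfp genes below that level were not analysed here.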
